A study of Mus musculus with 9 samples.

Results

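The 36 collagen chain genes of mouse lung described here are the genes whose symbol is Col followed by a type number, the letter a and a chain number, and that had at least 10 counts in at least 3 of 9 libraries. They come from 44 such rows in a table of 21983 genes, and fall into 9 fibrillar, 7 basement membrane, 8 network and 12 other chains. The rule used only names and count depth, not a difference between groups, but the gene family was chosen with earlier results of these data known. The data are RNA-seq counts of lung from mice of the inbred strain BALB/c, with 3 libraries in each of 3 groups. The BSYQF group was mice with a chronic asthma model that received the herbal Bu-Shen-Yi-Qi formula of Chinese medicine by mouth at 20 g of raw herbs per kg from day 14, for 6 weeks according to its treatment label. The asthma group was mice with the same model given saline by mouth, and the control group was normal mice given saline by mouth. The labels used here give neither the age of the mice nor whether each library came from a separate mouse, so p-values rest on the spread between libraries alone, and that spread may be technical.

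Collagens are proteins of 3 chains wound into a triple helix, and each chain has its own gene. Fibrillar collagens (types I, III and V) build the cables that give airway and alveolar walls their tensile strength, type IV collagen forms the sheet of the basement membranes under epithelium and endothelium, and type VI forms beaded filaments between them. In most basement membranes the type IV trimer holds chains from Col4a1 and Col4a2, whereas the alveolar basement membrane also carries a trimer of the Col4a3, Col4a4 and Col4a5 products. Thickening of the airway wall by deposited collagen is a known part of remodelling in chronic asthma.

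Levels below are in CPM, counts scaled to each library's total with TMM factors. Changes are log2 fold changes ± SE, and a gene is called where edgeR's quasi-likelihood test gave an adjusted p under 0.05 (Benjamini-Hochberg, over 14739 genes). The libraries held 16286385 to 22819199 counts, of which the 36 genes took 0.295% to 0.529%, and 3 counts corresponded to 0.131 to 0.184 CPM. Lung identity genes such as Sftpc and Ager were present at high levels in every library (45123 to 69042, 45071 to 67393 and 40973 to 54872 summed CPM over 5 genes in BSYQF, asthma and control libraries), and 0 of 5 were called in any of the 3 comparisons. On the first principal component of all tested genes, which held 51.6% of the variance, the control libraries lay at 43.2 to 56.7, but asthma replicate 3 lay at -1.77, apart from the other asthma libraries at -51.9 and -76.0. BSYQF replicate 1 lay at -40.5, apart from the other BSYQF libraries at -1.20 and 19.6. Results whose call changed when these 2 libraries were left out are given with and without them. They are the asthma library nearest to control and the BSYQF library nearest to asthma on that component, so leaving them out widens both contrasts by the way they were chosen. The p-values of that fit are therefore given as a description and support nothing. In whole lung, fewer cells of a type and less RNA per cell cannot be told apart.

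The type IV genes and the fibrillar genes that the results turn on are shown here by the sequence just before their starts. Col4a4 (minus strand) and Col4a3 (plus strand) lie head to head on chromosome 1 with 71 bases between their GENCODE models, and Col4a5 lies on the X chromosome. Col3a1 (plus strand) lies on chromosome 1 tail to tail with Col5a2, with 24614 bases between them, and Col24a1 (plus strand) on chromosome 3. The sequences are from RefSeq (build GRCm38.p6), read on the plus strand, in lower case with the letters TATAAA of the TATA box, the letters CCAAT or the letters GGGCGG of the GC box in capitals where present, each searched on both strands with no overlap between motifs in the stretches shown. They are chr1:82586850-82586920 between the Col4a4 and Col4a3 starts, chrX:141475169-141475384 for Col4a5, chr1:45311288-45311537 for Col3a1 and chr3:145292222-145292471 for Col24a1.
Col4a4-Col4a3 gap: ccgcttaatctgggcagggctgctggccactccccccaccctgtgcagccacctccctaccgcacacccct
Col4a5 upstream: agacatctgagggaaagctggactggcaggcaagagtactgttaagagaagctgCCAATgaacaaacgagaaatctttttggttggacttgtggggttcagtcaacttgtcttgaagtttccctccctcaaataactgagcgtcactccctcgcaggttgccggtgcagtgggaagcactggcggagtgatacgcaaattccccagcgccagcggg
Col3a1 upstream: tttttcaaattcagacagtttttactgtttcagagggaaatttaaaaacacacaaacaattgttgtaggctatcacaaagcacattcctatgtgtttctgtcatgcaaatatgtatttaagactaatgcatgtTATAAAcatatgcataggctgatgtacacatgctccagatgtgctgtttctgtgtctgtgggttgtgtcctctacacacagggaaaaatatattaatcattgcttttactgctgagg
Col24a1 upstream: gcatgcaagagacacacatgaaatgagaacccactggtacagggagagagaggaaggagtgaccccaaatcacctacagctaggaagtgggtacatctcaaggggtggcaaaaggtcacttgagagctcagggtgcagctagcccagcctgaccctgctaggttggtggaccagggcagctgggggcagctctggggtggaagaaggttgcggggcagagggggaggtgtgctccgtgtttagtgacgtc
The gap shared by Col4a4 and Col4a3 held none of the 3 motifs and was 69.0% G or C. The Col3a1 stretch held 1 TATAAA, 0 CpG and 35.2% G or C, the Col4a5 stretch 1 CCAAT, and the Col24a1 stretch none of the 3. Among 31 windows of 250 bases before the RefSeq starts of 29 of the collagen chain genes, 4 held TATAAA, 11 CCAAT and 19 GGGCGG. The shares were 12.9%, 35.5% and 61.3%, against 12.4%, 33.9% and 32.7% of all 32851 such windows. The collagen windows had a median of 59.6% G or C and 10 CpG, against 52.4% and 6 over all windows. A match of letters is a description and not a bound site.

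Per kilobase of transcript, so that genes can be compared with each other, Col4a1 had the highest mean level over the 9 libraries (106 CPM per kb), followed by its partner Col4a2 (89.1), Col3a1 (88.2) and Col1a2 (83.9). Next came the type VI chains Col6a1 (57.6) and Col6a2 (48.3), and Col1a1 (42.2). The levels then dropped to 23.1 CPM per kb for Col13a1, a membrane-spanning collagen, 16.9 for Col4a3 and 14.1 for Col23a1, and reached 0.23 for Col26a1 and 0.16 for Col25a1. Col4a1 averaged 115 ± 12.5 and Col4a2 97.4 ± 9.64 CPM per kb in control libraries, and 115 ± 43.3 and 95.3 ± 23.4 in asthma libraries (SD, n = 3 each). Within libraries the per-kb ratio of Col4a2 to Col4a1 was 0.890, 0.838 and 0.826 in BSYQF and 0.756, 1.04 and 0.783 in asthma. It was 0.860, 0.829 and 0.853 in control libraries, so Col4a2 lay below Col4a1 in every library but asthma replicate 2.

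**Figure D1:**
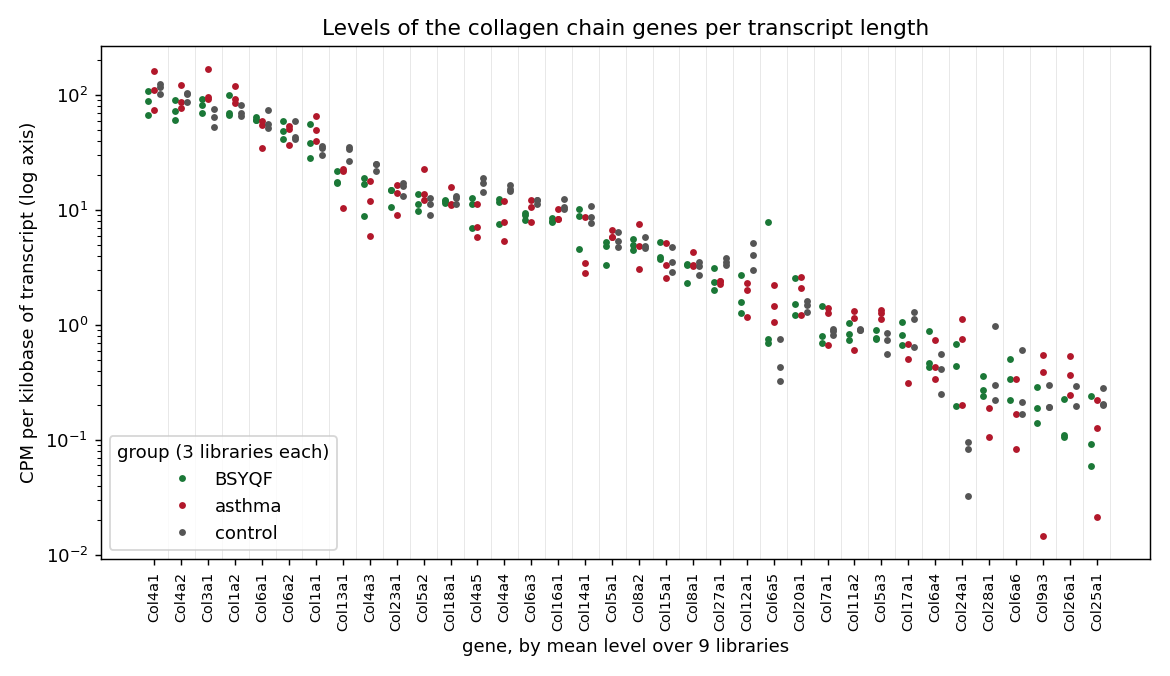
Level of each of the 36 collagen chain genes in CPM per kilobase of transcript (log axis), ordered by the mean over 9 libraries, with 1 point per library and the groups side by side; 2 library values at 0 are not drawn. Levels ran from 106 CPM per kb for Col4a1 to 0.16 for Col25a1.

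Just above the count rule stood Col25a1 (1 to 14 counts per library), Col26a1 (0 to 26), Col9a3 (1 to 25) and Col28a1 (0 to 76). Just below it stood Col10a1, with 24 and 19 counts in control replicates 2 and 3 and at most 2 elsewhere, Col2a1 (14 and 8 counts in the same 2 libraries, at most 7 elsewhere) and Col4a6 (at most 11). The other rows below the rule were Col9a1, Col9a2, Col11a1, Col19a1 and Col22a1. Col2a1, Col9a1, Col9a2, Col10a1 and Col11a1 are collagens of cartilage. Their summed counts were 0 to 7 in BSYQF libraries, 4 to 14 in asthma libraries, and 1, 55 and 40 in control replicates 1, 2 and 3. The cartilage proteoglycan Acan followed the same 2 libraries, with 0 to 1 counts in BSYQF libraries, 0 in each asthma library, and 0, 15 and 16 in the control libraries. Other cartilage markers did not: Cnmd had 16, 12 and 2 counts in the control libraries, and Cytl1 1277, 1126 and 1225. Comp had 41, 36 and 11 counts in asthma libraries and 8, 17 and 12 in control libraries. Of 8 cartilage markers only Comp and Cytl1 had counts enough to be tested, Cytl1 fell in asthma against control, and the summed level was 43.5 to 55.1 CPM in BSYQF libraries, 36.9 to 56.6 in asthma libraries and 67.4 to 70.7 in control libraries. Most of that sum was Cytl1, with means of 46.9, 41.7 and 66.7 CPM in BSYQF, asthma and control libraries. All 36 members passed the filter on low counts in the model of all 9 libraries.

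In asthma against control, 4 of the 36 genes were called, where 12.7% of all tested genes were called. Col24a1 and Col3a1 rose (8.23% of all genes were called higher), and Col4a5 and Col12a1 fell (4.45% were called lower). The share of 11.1% among the collagen genes was near the background, so the count is not a result about collagens as a group. At an unadjusted p under 0.05 there were 15 of 36, 6 higher and 9 lower, against 34.1% of all genes, 19.0% higher and 15.1% lower. In 14 of 36 the asthma and control libraries did not overlap, 6 higher and 8 lower, against 40.4% of all genes, 22.0% higher and 18.4% lower. The median log2 fold change was -0.01 over the 36 genes and 0.02 over all genes tested. By class it was 0.56 for the fibrillar genes (8 of 9 above 0), -0.03 for the basement membrane genes (2 of 7 above 0), -0.01 for the network genes (4 of 8) and -0.56 for the other genes (4 of 12). Over all genes, 7548 of 14739 lay above 0. With median-of-ratios scaling the class medians were 0.54, -0.05, -0.03 and -0.58. DESeq2 called 11 of the 36 genes (30.6%) against 22.5% of all genes, and limma voom 3 (8.33%) against 8.67%. With 1 library left out the count was 10 without asthma replicate 3 (28.5% of all genes), 8 without BSYQF replicate 1 (17.7%), 4 without BSYQF replicate 3 (15.0%) and 1 without BSYQF replicate 2 (6.33%). It was 0 without asthma replicate 1, asthma replicate 2 or any 1 control library, where 1.15% to 2.94% of all genes were called. With asthma replicate 3 and BSYQF replicate 1 both left out it was 13 of 36 (36.1%), which is the share of all genes in that fit (36.0%). The 13 were Col1a1, Col3a1, Col24a1 and Col6a5, with values above 0, and Col4a3, Col4a4, Col4a5, Col12a1, Col13a1, Col14a1, Col17a1, Col27a1 and Col28a1, with values below 0.

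**Figure D2:**
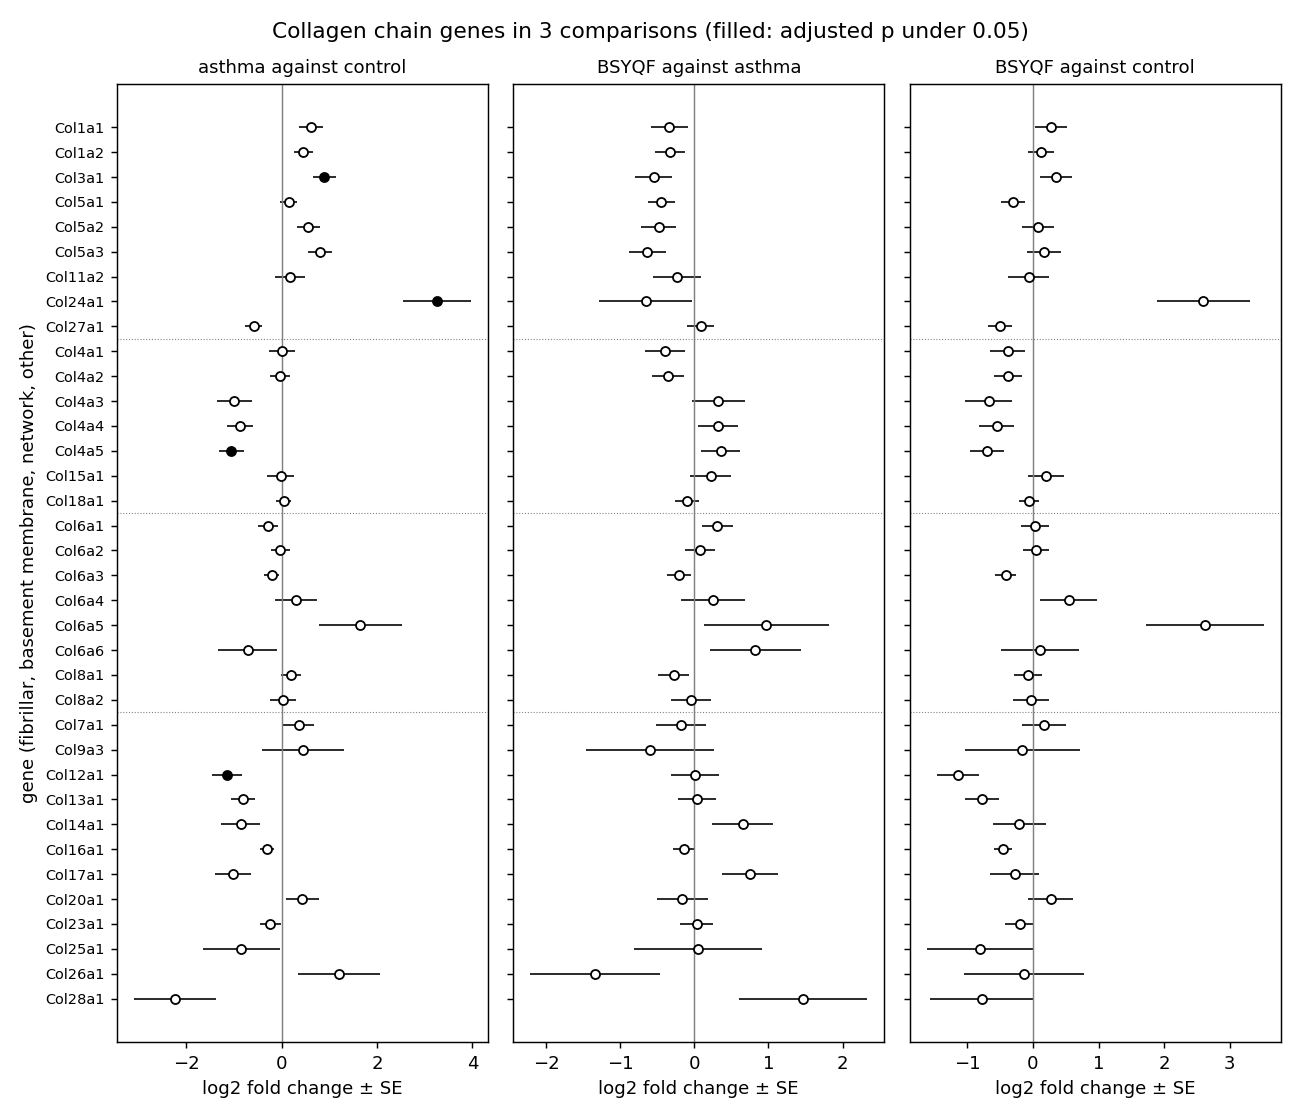
Log2 fold change ± SE of each collagen chain gene in the 3 comparisons, by class, from the edgeR fit of 9 libraries (3 per group), with called genes filled. The 4 called genes were all in asthma against control: Col24a1 at 3.25, Col3a1 at 0.90, Col4a5 at -1.06 and Col12a1 at -1.15.

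Among the fibrillar genes, Col3a1, which encodes the chain of type III collagen, had 390, 516 and 454 CPM in the BSYQF libraries, 934, 535 and 520 in the asthma libraries and 417, 291 and 361 in the control libraries. Every asthma library lay above every control and every BSYQF library, with asthma replicate 1 far above the rest. Col3a1 rose in asthma against control by a log2 fold change of 0.90 ± 0.25 (adjusted p = 0.0415), was 0.55 lower on the log2 scale in BSYQF than in asthma (-0.55 ± 0.24, adjusted p = 0.622), and lay at 0.35 ± 0.24 in BSYQF against control (adjusted p = 0.514). Without asthma replicate 3 and BSYQF replicate 1 the asthma change was 1.03 (adjusted p = 0.00732). Leaving out any 1 of asthma replicates 1 and 2, the 3 control libraries or BSYQF replicate 2 ended the call of Col3a1, and over the 9 such fits its log2 fold change ran from 0.55 to 1.03 and its adjusted p from 0.0120 to 0.157. A fit of the asthma and control libraries alone also ended the call (0.90, adjusted p = 0.0515). A miRNA gene model shares 141 exon bases with Col3a1.

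Col24a1, a minor fibrillar chain known from bone and cornea, had 4.84, 3.14 and 1.41 CPM in BSYQF libraries, 5.43, 8.0 and 1.43 in asthma libraries and 0.59, 0.23 and 0.69 in control libraries. The raw counts were 80, 54 and 27 in BSYQF libraries, 96, 119 and 32 in asthma libraries and 11, 4 and 13 in control libraries, so the control values lay close to the floor of 3 counts. Every asthma and every BSYQF library exceeded every control library. The log2 fold change was 3.25 ± 0.71 in asthma against control (adjusted p = 0.0219), the largest rise among the 36 genes. It was 2.60 ± 0.71 in BSYQF against control (adjusted p = 0.101) and -0.66 ± 0.62 in BSYQF against asthma (adjusted p = 0.737). The lowest values of both model groups were within reach of each other (1.41 CPM in BSYQF replicate 3 and 1.43 CPM in asthma replicate 3). Without asthma replicate 3 and BSYQF replicate 1 the asthma change was 3.68 (adjusted p = 0.000888). The call of Col24a1 held in 4 of the 9 fits that left out 1 library, and was lost without any 1 of asthma replicates 1 and 2 and the 3 control libraries, with adjusted p from 0.00219 to 0.0933 over the 9. It was lost with limma voom too (2.87, adjusted p = 0.0941).

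Type I collagen, the main cable of scar tissue, is made of 2 Col1a1 chains and 1 Col1a2 chain. Col1a1 had 167, 333 and 228 CPM in BSYQF libraries, 390, 237 and 294 in asthma libraries and 207, 179 and 215 in control libraries. Col1a2 had 362, 533 and 377 CPM in BSYQF libraries, 642, 460 and 495 in asthma libraries and 440, 351 and 377 in control libraries. For both genes every asthma library lay above every control library, while the BSYQF libraries overlapped both groups. Neither passed the test in asthma against control: the log2 fold changes were 0.62 ± 0.25 for Col1a1 (adjusted p = 0.111) and 0.45 ± 0.20 for Col1a2 (adjusted p = 0.140). The changes in BSYQF against asthma were -0.34 ± 0.25 and -0.33 ± 0.20 (adjusted p = 0.669 and 0.647). Without asthma replicate 3 and BSYQF replicate 1, Col1a1 was called in asthma against control (0.63, adjusted p = 0.0481). With only 1 library left out Col1a1 was called in 0 of 9 fits (adjusted p 0.0693 to 0.362). The per-kb ratio of Col1a1 to Col1a2 stayed between 0.417 and 0.564 over all 9 libraries.

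Type V chains are built into type I fibrils and set their width. Col5a3 had 4.66, 5.52 and 4.68 CPM in BSYQF libraries, 7.75, 6.92 and 8.34 in asthma libraries and 3.40, 5.27 and 4.58 in control libraries. The 3 asthma libraries lay above all 6 others, and the BSYQF and control libraries overlapped. The log2 fold change of Col5a3 was 0.80 ± 0.26 in asthma against control (adjusted p = 0.0613) and -0.63 ± 0.26 in BSYQF against asthma (adjusted p = 0.609), so neither passed. DESeq2 called Col5a3 in asthma against control (0.78, adjusted p = 0.0216). Limma voom did not, and with 1 library left out Col5a3 was called in 0 of 9 fits (adjusted p 0.0602 to 0.184). Col5a2 had 64.6, 92.3 and 74.8 CPM in BSYQF libraries, 151, 80.8 and 91.4 in asthma libraries and 85.0, 59.6 and 74.6 in control libraries, with overlap between all groups. Its log2 fold change was 0.56 ± 0.24 in asthma against control (adjusted p = 0.128) and -0.48 ± 0.24 in BSYQF against asthma (adjusted p = 0.624). Col5a1 had 28.0, 44.3 and 41.2 CPM in BSYQF libraries, 56.4, 48.8 and 49.2 in asthma libraries and 40.3, 45.5 and 54.2 in control libraries. It separated BSYQF from asthma (-0.44 ± 0.19, adjusted p = 0.616) but not asthma from control (0.14 ± 0.19, adjusted p = 0.614).

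Col3a1 and Col5a2 are tail-to-tail neighbours, and their per-kb ratio was 7.19, 6.65 and 7.22 in BSYQF libraries, 7.38, 7.89 and 6.77 in asthma libraries and 5.84, 5.81 and 5.75 in control libraries. The BSYQF and asthma ratios overlapped, and both lay above all control ratios. Col27a1, a fibrillar chain of cartilage, was the only fibrillar gene with a fold change below 0 in asthma against control. It had 24.0, 15.3 and 18.1 CPM in BSYQF libraries, 18.3, 17.4 and 18.3 in asthma libraries and 28.9, 25.4 and 27.0 in control libraries, with all control libraries highest (-0.59 ± 0.18 in asthma against control, adjusted p = 0.0564). Col27a1 was called with DESeq2 (-0.61, adjusted p = 0.0176), with the asthma and control libraries alone (-0.59, adjusted p = 0.0370), and without asthma replicate 3 and BSYQF replicate 1 (-0.61, adjusted p = 0.0180). Limma voom and median-of-ratios scaling did not call Col27a1. With 1 library left out it was called in 1 of 9 fits (adjusted p up to 0.158). Col11a2, a minor fibrillar chain, had 3.27 to 7.13 CPM over the 9 libraries, with overlap between all groups.

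**Figure D3:**
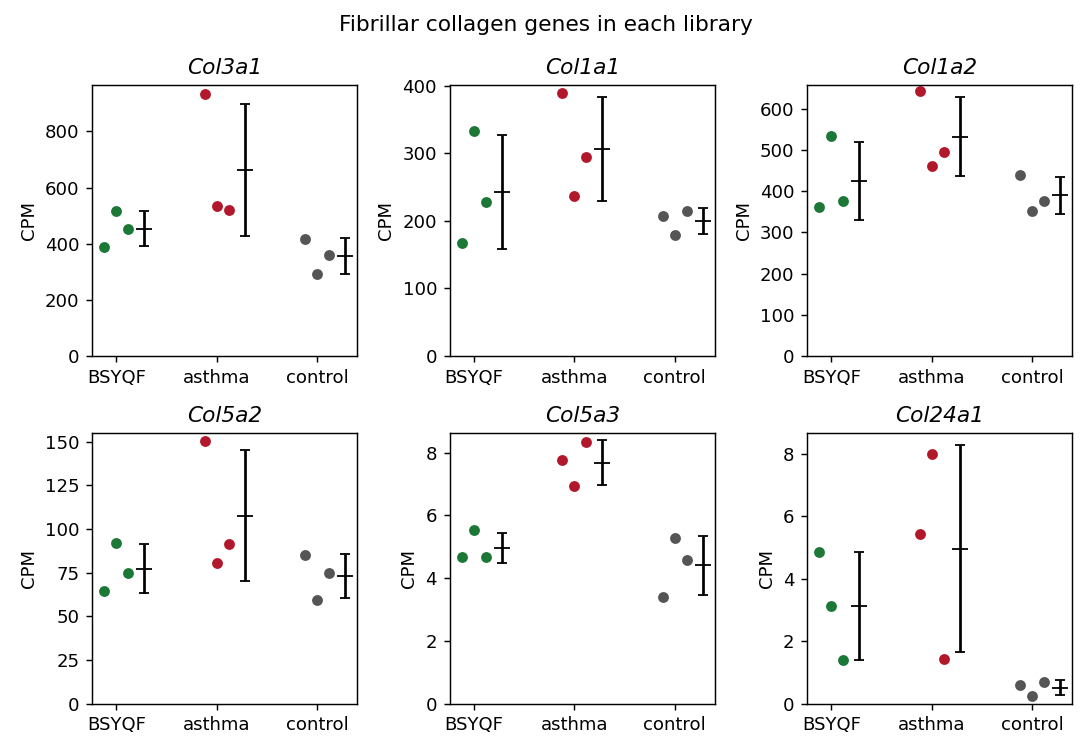
CPM of 6 fibrillar collagen genes in each library (points), with the mean and SD of each group of 3 libraries (bars), on axes that start at 0. The asthma libraries lay above the control libraries for Col3a1, Col1a1, Col1a2, Col5a3 and Col24a1, and Col5a2 overlapped.

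Summed over the 9 fibrillar genes, the level was 1267 ± 254 CPM in BSYQF libraries, 1698 ± 447 in asthma libraries and 1103 ± 134 in control libraries (SD, n = 3 each). By library the sums were 1051, 1547 and 1203 in BSYQF, 2212, 1401 and 1481 in asthma, and 1228, 962 and 1119 in control. All asthma sums exceeded all control sums, and asthma replicate 1 was the highest. The BSYQF sums overlapped both groups.

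Among the basement membrane genes, Col4a5 fell in asthma against control. Its partners Col4a3 and Col4a4 were lower in every asthma library than in any control library without passing the test, whereas the widespread pair Col4a1 and Col4a2 overlapped. Col4a5 had 45.8, 74.2 and 82.9 CPM in BSYQF libraries, 46.9, 38.5 and 73.2 in asthma libraries and 113, 123 and 93.7 in control libraries. All control libraries were above all others, and the BSYQF and asthma libraries overlapped. Col4a5 fell in asthma against control (-1.06 ± 0.26, adjusted p = 0.0323), with -0.70 ± 0.26 in BSYQF against control (adjusted p = 0.227) and 0.35 ± 0.26 in BSYQF against asthma (adjusted p = 0.670). The call of Col4a5 held in 3 of 9 fits that left out 1 library. It was lost without any 1 of asthma replicates 1 and 2, the 3 control libraries or BSYQF replicate 2, where adjusted p reached 0.122.

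Col4a3 had 75.6, 164 and 144 CPM in BSYQF libraries, 103, 51.0 and 153 in asthma libraries and 214, 214 and 186 in control libraries. Col4a4 had 75.9, 125 and 118 CPM in BSYQF libraries, 79.6, 54.0 and 121 in asthma libraries and 153, 166 and 149 in control libraries. For both genes the control libraries lay above all 6 libraries of the model, and asthma replicate 3 was the highest asthma library. The log2 fold changes in asthma against control were -0.99 ± 0.36 for Col4a3 (adjusted p = 0.0853) and -0.88 ± 0.27 for Col4a4 (adjusted p = 0.0539), so neither passed. The changes in BSYQF against asthma were 0.32 ± 0.36 and 0.32 ± 0.27 (adjusted p = 0.780 and 0.704). An antisense gene model shares 563 exon bases with Col4a3, and reads of the 2 strands cannot be told apart without strand information.

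Without asthma replicate 3 and BSYQF replicate 1, both genes and Col4a5 were called lower in asthma against control. The log2 fold changes were then -1.42 for Col4a3 (adjusted p = 0.00289), -1.23 for Col4a4 (adjusted p = 0.000755) and -1.38 for Col4a5 (adjusted p = 0.000378). In the same fit their values in BSYQF against asthma were 1.0 (adjusted p = 0.0418), 0.87 (adjusted p = 0.0215) and 0.89 (adjusted p = 0.0180). That fit called 5361 genes over all in asthma against control and 1744 in BSYQF against asthma, against 1869 and 1 with all 9 libraries. It leaves 2 libraries in each of the BSYQF and asthma groups, and the 2 left out were chosen by their place between the groups, so these p-values do not support a difference. DESeq2 with all libraries called Col4a3 (-1.02, adjusted p = 0.0269) and Col4a4 (-0.90, adjusted p = 0.0131) lower in asthma against control. Limma voom called neither. With 1 library left out each was called in 2 of 9 fits, with adjusted p up to 0.219 for Col4a3 and 0.165 for Col4a4.

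Col4a1 had 448, 715 and 585 CPM in BSYQF libraries, 1066, 496 and 730 in asthma libraries and 782, 831 and 670 in control libraries. Col4a2 had 389, 584 and 472 CPM in BSYQF libraries, 786, 501 and 557 in asthma libraries and 656, 672 and 557 in control libraries. Both spread widely among the asthma libraries and overlapped the control libraries. Their log2 fold changes in asthma against control were 0.00 ± 0.27 and -0.03 ± 0.21 (adjusted p = 0.992 and 0.927), and that of Col4a1 was -0.01 with median-of-ratios scaling. Between BSYQF and asthma they were -0.39 ± 0.27 and -0.35 ± 0.21 (adjusted p = 0.658 and 0.646). The 2 gene models overlap head to head by 22 bases.

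The per-kb ratio of Col4a5 to Col4a1 was 0.104, 0.105 and 0.143 in BSYQF libraries, 0.0445, 0.0785 and 0.102 in asthma libraries and 0.146, 0.150 and 0.142 in control libraries. The ratio of Col4a3 to Col4a1 was 0.131, 0.178 and 0.190 in BSYQF libraries, 0.0750, 0.0796 and 0.162 in asthma libraries and 0.211, 0.199 and 0.214 in control libraries. For Col4a4 to Col4a1 it was 0.111, 0.115 and 0.132 in BSYQF libraries, 0.0489, 0.0714 and 0.108 in asthma libraries and 0.128, 0.130 and 0.146 in control libraries. All asthma ratios lay below all control ratios, and for Col4a4 and Col4a5 below all BSYQF ratios too. Within each trimer the ratios moved less: the highest over the lowest of 9 libraries was 1.37 for Col4a2 to Col4a1, 1.48 for Col4a3 to Col4a4 and 1.26 for Col4a5 to Col4a4, against 2.86, 2.98 and 3.37 for Col4a3, Col4a4 and Col4a5 to Col4a1. These ratios were not tested.

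**Figure D4:**
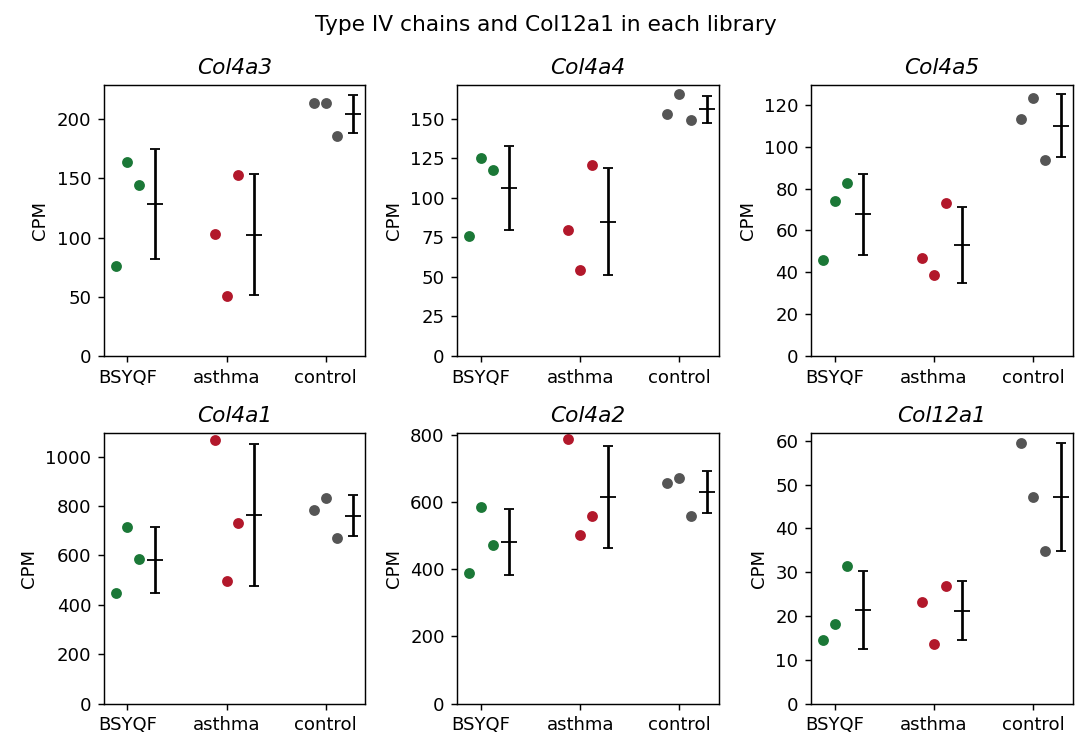
CPM of 5 type IV collagen genes and of Col12a1 in each library (points), with the mean and SD of each group of 3 libraries (bars), on axes that start at 0. For Col4a3, Col4a4, Col4a5 and Col12a1 all asthma libraries lay below all control libraries, whereas Col4a1 and Col4a2 overlapped.

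The Col4a3, Col4a4 and Col4a5 chains are made in the lung chiefly by alveolar type 1 cells, the flat cells of gas exchange. Of that cell type's markers, 4 of 5 were tested (Pdpn had at most 3 counts in any library), and 0 rose or fell in asthma against control. Their summed level was 2732 to 3358 CPM in BSYQF libraries, 2549 to 3882 in asthma libraries and 3825 to 3968 in control libraries. Endothelial markers had 1 of 5 called lower in asthma (Kdr), with summed levels of 2199 to 2692, 1524 to 2689 and 2568 to 3634 CPM in BSYQF, asthma and control libraries. The part of these cell types in the type IV results was not tested.

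Col15a1 and Col18a1, basement membrane collagens whose tails are cut to endostatin-like fragments, overlapped between the groups. Col18a1 was the steadiest of the 36 genes, at 64.9 to 68.5 CPM in BSYQF libraries, 61.9 to 89.1 in asthma libraries and 63.6 to 74.7 in control libraries. Col15a1 had 19.3 to 27.1 CPM in BSYQF libraries, 13.1 to 26.8 in asthma libraries and 14.9 to 24.7 in control libraries. Summed over the 7 basement membrane genes, the level was 1455 ± 318 CPM in BSYQF libraries, 1709 ± 489 in asthma libraries and 1949 ± 188 in control libraries (SD, n = 3 each), and the asthma libraries overlapped both other groups.

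Among the network genes none was called. The main type VI chains Col6a1, Col6a2 and Col6a3 form beaded filaments around cells. Col6a1 had 266, 249 and 249 CPM in BSYQF libraries, 246, 141 and 227 in asthma libraries and 305, 232 and 211 in control libraries, with asthma replicate 2 the lowest. All BSYQF libraries of Col6a1 lay above all asthma libraries, by a small margin (0.31 ± 0.21, adjusted p = 0.656), and asthma overlapped control (-0.28 ± 0.21, adjusted p = 0.366). Col6a2 had 235, 191 and 164 CPM in BSYQF libraries, 212, 146 and 199 in asthma libraries and 233, 165 and 171 in control libraries, and the groups overlapped (-0.03 ± 0.20 in asthma against control, adjusted p = 0.927). Col6a3 had 83.5, 94.9 and 92.0 CPM in BSYQF libraries, 123, 80.3 and 108 in asthma libraries and 113, 123 and 124 in control libraries. All BSYQF libraries of Col6a3 lay below all control libraries, without passing the test (-0.41 ± 0.16, adjusted p = 0.245).

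The network gene that varied most was Col6a5, an alternative to the Col6a3 chain of type VI collagen. It had 73.5, 6.97 and 6.51 CPM in BSYQF libraries, 13.5, 20.9 and 9.95 in asthma libraries and 7.02, 3.04 and 3.99 in control libraries. BSYQF replicate 1 stood apart from all 8 other libraries, and all asthma libraries lay above all control libraries. The log2 fold change was 1.65 ± 0.88 in asthma against control (adjusted p = 0.212), 2.62 ± 0.90 in BSYQF against control (adjusted p = 0.203) and 0.97 ± 0.84 in BSYQF against asthma (adjusted p = 0.719). The direction of Col6a5 in BSYQF against asthma rested on BSYQF replicate 1: without that library the value was -1.12 (adjusted p = 0.296). Without both asthma replicate 3 and BSYQF replicate 1 it was -1.34 (adjusted p = 0.0483), and 1.86 in asthma against control (adjusted p = 0.00295), in the fit whose choice of libraries widens both contrasts. With the asthma and control libraries alone Col6a5 was at 1.65 (adjusted p = 0.0303). DESeq2 and limma voom did not call Col6a5 in asthma against control. With 1 library left out it was called there in 1 of 9 fits (adjusted p up to 0.490). Its neighbours on chromosome 9 did not share that high library: Col6a4 had 3.21, 3.43 and 6.51 CPM in BSYQF libraries, and Col6a6 had 2.97, 1.98 and 4.42.

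The short-chain network collagens Col8a1 and Col8a2, made in vessel walls, overlapped between all groups, with 11.7 to 22.2 and 13.4 to 32.9 CPM over the 9 libraries. Summed over the 8 network genes, the level was 615 ± 70.6 CPM in BSYQF libraries, 556 ± 108 in asthma libraries and 608 ± 79.6 in control libraries (SD, n = 3 each).

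The other collagens are mainly those that decorate fibrils (FACIT collagens) and those that span the cell membrane, and Col12a1 was the only one of the 12 that was called. Col12a1, a FACIT collagen that links fibrils to the surrounding matrix, had 14.5, 18.2 and 31.3 CPM in BSYQF libraries, 23.3, 13.6 and 26.8 in asthma libraries and 59.5, 47.2 and 34.9 in control libraries. All control libraries of Col12a1 were above all 6 others. It fell in asthma against control (-1.15 ± 0.32, adjusted p = 0.0441) and lay at -1.14 ± 0.32 in BSYQF against control (adjusted p = 0.112) and 0.01 ± 0.32 in BSYQF against asthma (adjusted p = 0.996). The call held in 3 of 9 fits that left out 1 library, and was lost without any 1 of asthma replicates 1 and 2, the 3 control libraries or BSYQF replicate 2 (adjusted p up to 0.152). Without asthma replicate 3 and BSYQF replicate 1 the change was -1.36 (adjusted p = 0.0109).

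Col16a1, another FACIT collagen, had 44.1, 40.7 and 41.6 CPM in BSYQF libraries, 53.3, 43.3 and 43.3 in asthma libraries and 65.3, 55.1 and 53.5 in control libraries. Its control libraries were the highest, but it passed in neither asthma against control (-0.31 ± 0.14, adjusted p = 0.142) nor BSYQF against control (-0.46 ± 0.14, adjusted p = 0.144). Col14a1, a FACIT collagen and marker of another matrix fibroblast population in mouse lung, had 29.6, 57.1 and 66.0 CPM in BSYQF libraries, 22.6, 18.4 and 55.9 in asthma libraries and 70.1, 56.5 and 50.1 in control libraries. Asthma replicate 3 and BSYQF replicate 1 lay apart from their groups here, and the log2 fold change in asthma against control was -0.86 ± 0.41 (adjusted p = 0.161) with them and -1.53 (adjusted p = 0.000390) without. The log2 fold change of Col14a1 in BSYQF against asthma was 0.65 ± 0.41 (adjusted p = 0.650) with them and 1.59 (adjusted p = 0.00599) without. The choice of those 2 libraries widens both contrasts, so the p-values without them do not support a difference. Without them 36.0% of all genes were called in asthma against control and 11.7% in BSYQF against asthma.

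Col13a1, a membrane-spanning collagen of cell junctions and a marker of a matrix fibroblast population in mouse lung, had 53.9, 55.2 and 68.8 CPM in BSYQF libraries, 68.7, 33.1 and 71.9 in asthma libraries and 84.3, 113 and 108 in control libraries. All 6 libraries of the model lay below all control libraries. The log2 fold change was -0.81 ± 0.26 in asthma against control (adjusted p = 0.0594) and -0.78 ± 0.26 in BSYQF against control (adjusted p = 0.176). Col13a1 was called lower in asthma against control with DESeq2 (-0.83, adjusted p = 0.0195) and without asthma replicate 3 and BSYQF replicate 1 (-1.01, adjusted p = 0.0220). Limma voom did not call Col13a1 in asthma against control. With 1 library left out it was called there in 1 of 9 fits (adjusted p up to 0.182). Col13a1 was called lower in BSYQF against control in a fit of the BSYQF and control libraries alone (-0.77, adjusted p = 0.0456). With 1 library left out it was called in that comparison in 1 of 9 fits (adjusted p up to 0.442). Col23a1, also membrane-spanning, had 60.3, 84.6 and 85.0 CPM in BSYQF libraries, 79.1, 51.0 and 94.4 in asthma libraries and 97.7, 91.8 and 75.3 in control libraries, with overlap between all groups (-0.24 ± 0.22 in asthma against control, adjusted p = 0.473).

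Col17a1, the hemidesmosome collagen of basal epithelium, had 4.54, 3.78 and 5.88 CPM in BSYQF libraries, 1.75, 2.82 and 3.81 in asthma libraries and 3.62, 6.32 and 7.29 in control libraries, and asthma and control libraries overlapped (-1.03 ± 0.38, adjusted p = 0.0876). Col17a1 was called in asthma against control with DESeq2 (-1.05, adjusted p = 0.0404) and without asthma replicate 3 and BSYQF replicate 1 (-1.35, adjusted p = 0.0317). Limma voom did not call Col17a1, and with 1 library left out it was called in 1 of 9 fits (adjusted p up to 0.226). Beside Col17a1, the basal keratins Krt5 (-4.13 ± 0.60, adjusted p = 0.00715) and Krt15 (-3.46 ± 0.59, adjusted p = 0.0100) fell in asthma against control, whereas the keratin Krt14 was at -0.33 ± 0.97 (adjusted p = 0.833) and the basal cell factor Trp63 at 0.68 ± 0.56 (adjusted p = 0.412). Krt5 had 84, 47 and 130 counts in BSYQF libraries, 4, 2 and 1 in asthma libraries and 38, 40 and 52 in control libraries. Krt5 was the 1 gene called in BSYQF against asthma, where it rose. Of 4 basal and squamous markers, 2 fell, and their summed level was 8.71 to 21.1 CPM in BSYQF libraries, 2.02 to 3.68 in asthma libraries and 7.78 to 10.4 in control libraries. Col28a1, made by Schwann cells of peripheral nerve, had 1.03, 1.51 and 1.15 CPM in BSYQF libraries, 0.45, 0 and 0.81 in asthma libraries and 4.11, 0.94 and 1.28 in control libraries. All asthma libraries of Col28a1 lay below all others, and control replicate 1 lay far above the rest (-2.24 ± 0.86 in asthma against control, adjusted p = 0.0968). Col28a1 was called with DESeq2 (-2.30, adjusted p = 0.0351) and without asthma replicate 3 and BSYQF replicate 1 (-3.12, adjusted p = 0.0397). Limma voom did not call Col28a1, and with 1 library left out it was called in 1 of 9 fits (adjusted p up to 0.380). Of 4 Schwann cell markers 1 fell in asthma against control (Cdh19), and the summed level was 14.9 to 26.0, 9.11 to 20.4 and 14.6 to 28.4 CPM in BSYQF, asthma and control libraries. The part of these cell types in the values of Col17a1 and Col28a1 was not tested.

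The remaining other collagens (Col7a1 of anchoring fibrils, and Col9a3, Col20a1, Col25a1 and Col26a1) overlapped between asthma and control. Col7a1 had 6.45 to 13.4 CPM in BSYQF libraries, 6.23 to 13.1 in asthma libraries and 7.55 to 8.59 in control libraries. Summed over the 12 other collagens, the level was 275 ± 40.2 CPM in BSYQF libraries, 258 ± 62.2 in asthma libraries and 378 ± 27.6 in control libraries (SD, n = 3 each). All control sums (348 to 402 CPM) exceeded all BSYQF sums (234 to 314) and all asthma sums (189 to 310).

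Markers of the cells that make most of these collagens, and of other cells, were counted beside them. Over all tested genes, 8.23% were called higher and 4.45% lower in asthma against control. Of 8 fibroblast markers 7 were tested, and Cthrc1 was at 0 in every library. In asthma against control 0 rose and 3 fell: Npnt (-1.32 ± 0.25, adjusted p = 0.0124), Itga8 (-1.77 ± 0.32, adjusted p = 0.0109) and Dpt (-0.55 ± 0.16, adjusted p = 0.0485). Their median log2 fold change was -0.78, where that of the fibrillar collagen genes was 0.56. Their summed level was 1262 to 1650 CPM in BSYQF libraries, 771 to 1449 in asthma libraries and 2153 to 2387 in control libraries. All control libraries lay above all others. Of 7 smooth muscle and pericyte markers 0 were called, with 810 to 1032, 751 to 1249 and 878 to 1173 CPM in BSYQF, asthma and control libraries. Macrophage markers rose in asthma (4 of 4 called, 193 to 449, 325 to 417 and 87.0 to 125 CPM in BSYQF, asthma and control libraries). Markers of fat and of heart muscle, a tissue that mouse pulmonary veins also carry within the lung, differed too. Adipocyte markers (4 of 4 called lower in asthma against control) summed to 46.6 to 258, 2.09 to 8.11 and 48.8 to 282 CPM in BSYQF, asthma and control libraries, and cardiac muscle markers (4 of 5 called lower) to 369 to 829 in BSYQF libraries, 111 to 210 in asthma libraries and 341 to 837 in control libraries. Of 4 mesothelial markers 0 were called (137 to 215, 35.8 to 149 and 172 to 381 CPM in BSYQF, asthma and control libraries), and of 4 leukocyte markers 1 rose in asthma against control (391 to 598, 285 to 419 and 200 to 421 CPM in BSYQF, asthma and control libraries). The part of these cells and tissues in the collagen results was not tested.

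**Figure D5:**
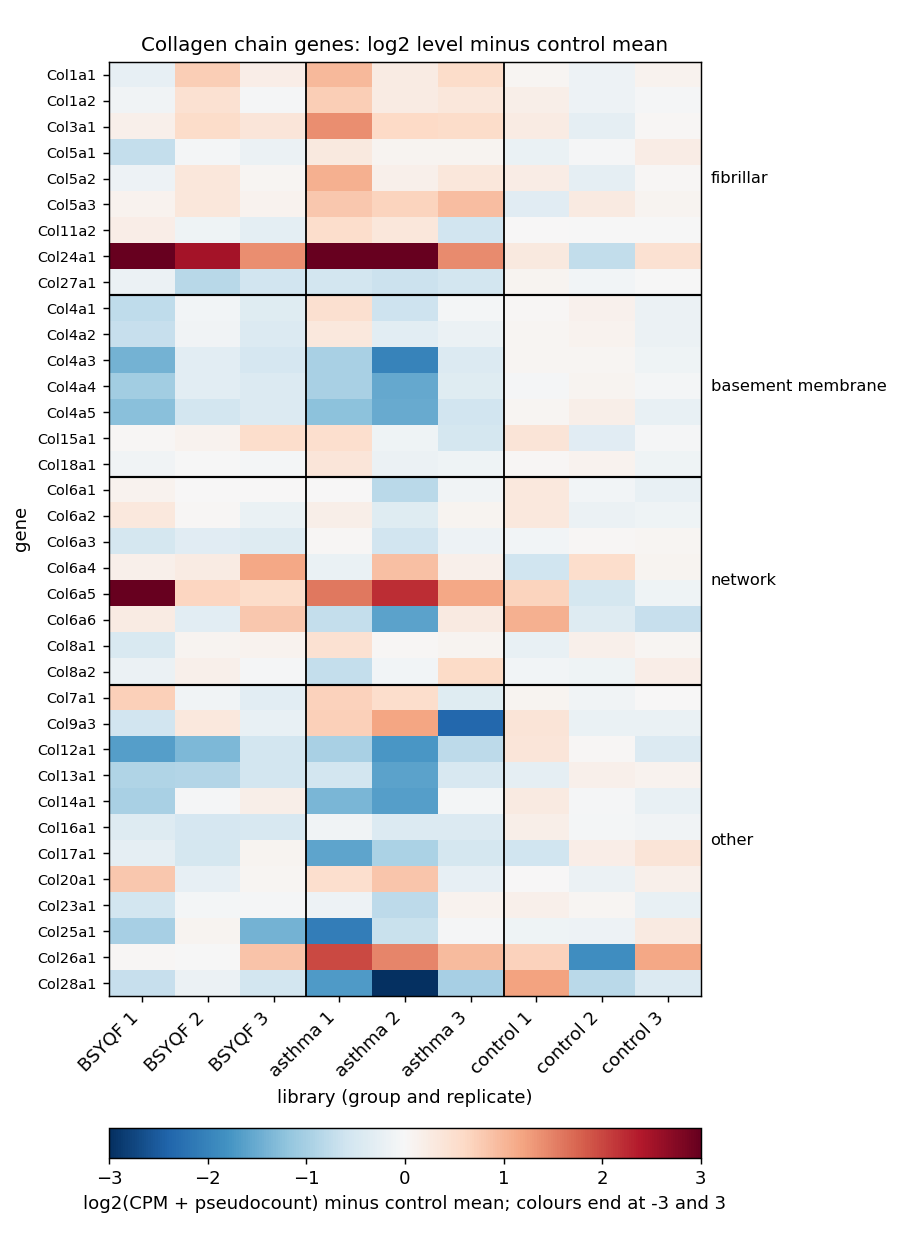
Log2 level of each collagen chain gene in each library minus the mean of the 3 control libraries, on log2(CPM + 0.111), with genes by class, BSYQF, asthma and control libraries from left to right, and colours that end at -3 and 3. Asthma replicate 3 and BSYQF replicate 1 differ from the other libraries of their groups, for example in Col14a1 (55.9 and 29.6 CPM) and, for BSYQF replicate 1, in Col6a5 (73.5 CPM).

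In BSYQF against asthma, 0 of the 36 genes were called by edgeR's quasi-likelihood test, where 1 of 14739 genes was called (0.00678%). DESeq2 and limma voom also called 0 of 36, against 0.835% and 0.0% of all genes. At an unadjusted p under 0.05 there were 3 of 36 (Col3a1, Col5a1 and Col5a3, all lower), against 7.94% of all genes, 3.79% higher and 4.15% lower. The libraries did not overlap for 6 of 36, with Col6a1 and Col28a1 higher and Col3a1, Col5a1, Col5a3 and Col26a1 lower, against 9.75% of all genes, 4.99% higher and 4.76% lower. The median log2 fold change was -0.07 over the 36 genes and -0.00 over all genes. By class it was -0.44 for the fibrillar genes (8 of 9 below 0), 0.22 for the basement membrane genes, 0.17 for the network genes and 0.02 for the other genes. Over all genes 7476 of 14739 lay below 0. This comparison shares the asthma libraries with asthma against control, so the 2 sets of fold changes are not independent. With asthma replicate 3 and BSYQF replicate 1 left out, 5 of 36 were called: Col4a3, Col4a4, Col4a5 and Col14a1, with values above 0, and Col6a5, with a value below 0. That share of 13.9% was near the 11.7% of all genes called in that fit, so the count is not a result about collagens.

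In BSYQF against control, 0 of the 36 genes were called by edgeR's quasi-likelihood test, where 1.67% of all genes were called, 1.63% higher and 0.0407% lower. DESeq2 called 2, Col24a1 higher (2.60, adjusted p = 0.00592) and Col12a1 lower (-1.15, adjusted p = 0.0180), and limma voom called 0. Over all genes DESeq2 called 5.6% and limma voom 0.611%, and 2 of 36 is 5.56%. At an unadjusted p under 0.05 there were 8 of 36, with Col24a1 and Col6a5 higher and Col4a5, Col6a3, Col12a1, Col13a1, Col16a1 and Col27a1 lower, against 15.8% of all genes, 10.1% higher and 5.7% lower. The libraries did not overlap for 9 of 36, of which Col24a1 was higher, against 24.8% of all genes, with 13.0% of all genes higher. The 8 lower were Col4a3, Col4a4, Col4a5, Col6a3, Col12a1, Col13a1, Col16a1 and Col27a1, and 11.8% of all genes were without overlap and lower. The median log2 fold change was -0.11 over the 36 genes and -0.00 over all genes. By class it was 0.12 for the fibrillar genes, -0.39 for the basement membrane genes (6 of 7 below 0), 0.04 for the network genes and -0.24 for the other genes (10 of 12 below 0).

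The genes that make, trim, bind and degrade collagen were counted from 4 lists of known roles. In asthma against control 8.23% of all tested genes were called higher and 4.45% lower. The counts of the lists were not tested against these shares. Of 22 collagen biosynthesis genes, 2 rose and 2 fell in asthma against control, with a median log2 fold change of 0.20. P4hb, a subunit of the enzyme that hydroxylates collagen prolines, rose (0.86 ± 0.20, adjusted p = 0.0260), as did Fkbp10, a chaperone of procollagen (0.78 ± 0.21, adjusted p = 0.0400). P3h3, of the lysine hydroxylation complex, fell (-0.56 ± 0.15, adjusted p = 0.0392), as did Colgalt2, which adds galactose to collagen (-1.39 ± 0.29, adjusted p = 0.0186). The summed level of the list was 1531 to 1992 CPM in BSYQF libraries, 1944 to 2882 in asthma libraries and 1583 to 1838 in control libraries, and asthma did not overlap control.

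Of 20 fibril processing and crosslinking genes, 1 rose and 5 fell in asthma against control (median -0.35). Lox, the enzyme that crosslinks fibrils, rose (1.36 ± 0.30, adjusted p = 0.0211). Among those that fell, Pcolce2, an enhancer of procollagen trimming, was at -1.80 ± 0.33 (adjusted p = 0.0120), Tnxb, a fibril spacing protein, at -1.81 ± 0.41 (adjusted p = 0.0249), and Tll1, a procollagen protease, at -2.02 ± 0.49 (adjusted p = 0.0304). Of 11 collagen receptors, 1 rose and 3 fell (median -0.27). Lair1, an inhibitory receptor of leukocytes, rose (1.17 ± 0.23, adjusted p = 0.0141), and the integrin Itga1 (-1.20 ± 0.28, adjusted p = 0.0245), the type IV collagen receptor Adgrg6 (-0.93 ± 0.25, adjusted p = 0.0392) and the fibrillar collagen receptor Ddr2 (-0.56 ± 0.16, adjusted p = 0.0475) fell.

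Of 15 genes listed for collagen degradation, a list that also holds inhibitors of it, 6 rose and 0 fell in asthma against control (median 1.08), 1 of the 6 being an inhibitor. Mmp14, a collagenase of the cell surface, was at 1.58 ± 0.24 (adjusted p = 0.00817), the cathepsins Ctsb and Ctsk, proteases of the lysosome, at 1.67 ± 0.33 (adjusted p = 0.0162) and 3.59 ± 0.75 (adjusted p = 0.0224). The inhibitor was Timp1, which blocks mainly secreted metalloproteinases and so opposes degradation, at 6.23 ± 0.82 (adjusted p = 0.00715). Mmp12 was at 6.86 ± 1.57 (adjusted p = 0.0311) and Mmp19 at 2.37 ± 0.64 (adjusted p = 0.0445). Mmp12 was uneven, with 1615, 96.4 and 65.7 CPM in BSYQF libraries and 992, 1217 and 77.5 in asthma libraries. It had 7.08, 5.73 and 6.81 CPM in control libraries. In BSYQF against asthma none of the tested genes of the 4 lists was called by edgeR's quasi-likelihood test. In BSYQF against control 1 was called, Lair1 (1.04, adjusted p = 0.0468), where 1.67% of all tested genes were called.

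The authors' deposited table of asthma against control lists 1746 genes, where the count table holds 21983. All have log2 fold changes past 1 in either direction and unadjusted p-values under 0.05, unlike the calls above, which used adjusted p. That table lists 7 of the 36 collagen genes: Col24a1 at 3.25 and Col6a5 at 1.63, and Col4a3 at -1.02, Col17a1 at -1.06, Col4a5 at -1.08, Col12a1 at -1.17 and Col28a1 at -2.31. The authors' deposited adjusted p was above 0.05 for Col17a1 (0.0560) and Col28a1 (0.0538). The authors' deposited table of BSYQF against control lists Col24a1 (2.61) and Col12a1 (-1.15) among 896 genes. The authors' deposited table of BSYQF against asthma lists none of the 36 among 424 genes. These tables come from the same libraries and are not separate evidence.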

How the data were processed

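Per the labels' protocols, lung RNA was isolated with Trizol and made into Illumina libraries with a NEBNext kit. Tools named in the submitters' processing notes are FastQC, cutadapt, STAR, HTSeq and DESeq2, and mm10 is the build. Their versions and settings, the strand setting and the annotation were not given in the sources used here. Raw counts of each gene in each library, as deposited by the authors without normalization, were the input of every test. The authors' deposited tables of 3 comparisons hold log2 fold changes and p-values, used only where named, and 36 further deposited columns of values per library were not used.

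Genes were filtered with filterByExpr and libraries scaled with TMM, and edgeR 4.0.16 (R 4.3.3; glmQLFit, legacy and robust, then glmQLFTest) was run in 1 model of the 3 groups, with Benjamini-Hochberg adjustment over all genes tested. The script was tested on simulated data. The SE is the size of the log2 fold change over the square root of F. Alternatives were DESeq2 1.42.0, limma voom 3.58.1, other scaling and filtering, a replicate block, 2-group fits and libraries left out. Total counts were 16286385 to 22819199 per library, and 3 counts were taken as the floor; such floors cover counting error only. Lengths are of the transcript with the longest coding part in GENCODE vM21 (GRCm38, the same assembly as mm10). Promoter windows are RefSeq's. Counts over windows used all 250 bases before the RefSeq start, and only the stretches shown were cut at the GENCODE start. The full Col4a5 window held a GGGCGG that its cut stretch does not. Genes given in full were those called, the 3 with the highest mean CPM per class, the 4 with the smallest p per comparison and their partner chains. Of those chains Col6a4 and Col6a6 were given in part. Of each other list the 4 with the smallest p in asthma against control were to be named. This was done for the 4 lists of known roles, but not for every list of markers. Col14a1, Col17a1, Col27a1 and Col28a1, and among the lists Kdr, Krt5, Krt15, Cdh19, Acan, Cnmd, Mmp12 and Mmp19 where outside that rule, were named after their values were seen. The members and lists were chosen with earlier results of these data known.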

Additional observations from a re-analysis of the deposited data

How the results depend on the processing

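With each library left out in turn, 0 to 10 of the 36 collagen genes were called in asthma against control, 0 to 0 in BSYQF against asthma and 0 to 1 in BSYQF against control. The count in asthma against control was 10 without asthma replicate 3, 8 without BSYQF replicate 1, 1 without BSYQF replicate 2, and 0 without asthma replicate 1, asthma replicate 2 or any 1 control library. The 1 gene in BSYQF against control was Col12a1 without BSYQF replicate 3, Col13a1 without asthma replicate 2 and Col24a1 without asthma replicate 3. Those fits called, in that order, 1.82%, 1.57% and 3.77% of all genes. With asthma replicate 3 and BSYQF replicate 1 both left out, 13 genes were called in asthma against control, 5 in BSYQF against asthma and 0 in BSYQF against control, the order of the counts that follow. DESeq2 called 11, 0 and 2, and limma voom 3, 0 and 0 (Col24a1 lost). The cause of these differences between tools was not tested. Fits of only the groups compared tested 35, 35 and 34 of the collagen genes and called 5, 0 and 1, where fewer libraries set the spread. Of all genes these fits called 13.8%, 0% and 2.68%. In asthma against control Col3a1 was lost and Col27a1 and Col6a5 were gained. Median-of-ratios scaling, no filter and the newer dispersion method called 4, 0 and 0, as reported. Whether equal replicate numbers pair the libraries cannot be settled with 3 libraries per group. The correlations of same-numbered deviations were -0.01, -0.10 and -0.14 in asthma against control and 0.11, -0.12 and 0.34 in BSYQF against asthma. In BSYQF against control they were -0.04, -0.03 and -0.26. Those of different-numbered deviations ran from -0.43 to 0.37 over the 3 comparisons. With the replicate block 3, 0 and 0 collagen genes were called, Col3a1 being lost (adjusted p = 0.0519). Over all genes, asthma against control gave 171 to 4262 calls with 1 library left out, 3315 with DESeq2 and 5361 with both libraries left out, against 1869 in the reported fit. In BSYQF against asthma these were 0 to 114, 123 and 1744, against 1, with 15 under the replicate block. In BSYQF against control they were 9 to 563, 826 and 427, against 246. Some directions turned, all of changes that were not called in the reported fit, and not all of them small. Col4a1 in asthma against control was -0.015 with median-of-ratios scaling, -0.015 with DESeq2, -0.068 with limma voom and -0.0071 with the replicate block. Col12a1 in BSYQF against asthma was -0.032 with limma voom. With both libraries left out, Col4a2 in asthma against control was 0.020, and in BSYQF against asthma Col27a1 was -0.092, Col6a2 -0.0045 and Col6a5 -1.34. In BSYQF against control Col14a1 was then 0.059, Col6a1 -0.0075 and Col6a2 -0.10. With 1 library left out, fold changes crossed 0 in asthma against control for Col4a1 (-0.34 to 0.22), Col4a2 (-0.27 to 0.077), Col6a2 (-0.16 to 0.14), Col6a4 (-0.10 to 0.60) and Col6a6 (-1.39 to 0.069). In BSYQF against asthma they did for Col6a5 (-1.12 to 1.45), Col12a1 (-0.38 to 0.23), Col13a1 (-0.24 to 0.22), Col23a1 (-0.17 to 0.24), Col27a1 (-0.10 to 0.22), Col6a2 (-0.058 to 0.20) and Col6a4 (-0.15 to 0.64). In BSYQF against control they did for Col1a1 (-0.021 to 0.48), Col1a2 (-0.078 to 0.22), Col5a2 (-0.070 to 0.20), Col14a1 (-0.44 to 0.059), Col28a1 (-1.13 to 0.15), Col6a1 (-0.078 to 0.20), Col6a2 (-0.10 to 0.22) and Col6a6 (-0.24 to 0.89). Class sums of CPM moved by less than 1 SD under both other scalings. With 3 libraries per group, values of genes near 3 counts, such as Col25a1, Col26a1 and Col9a3, are limited by depth.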
